A study of Homo sapiens with 6 samples.

Results

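The T-box genes TBX5, TBX20, TBX2, TBX3 and TBX18 were examined in peak lists from ATAC-seq, an assay that marks accessible DNA by letting the enzyme Tn5 insert sequencing adapters there. Peaks were taken when their midpoint lay in a fixed window around 1 of the genes on hg19, and not by any measured value. The windows were chr12:114650001-114950000 for TBX5, chr7:35150001-35400000 for TBX20, chr17:59430001-59530000 for TBX2, chr12:114950001-115400000 for TBX3 and chr6:85350001-85550000 for TBX18. They held 390 of the 478912 peaks in the 6 lists, and 127 of the 157560 regions formed by merging peaks that overlapped by at least 1 bp. The cells were ventricular-like cardiomyocytes at day 15 of differentiation from H9, a human embryonic stem cell line. There were 3 libraries of cells in which ZNF436, which encodes a KRAB-type zinc finger protein, was knocked down, and 3 control libraries. All 6 came from the same H9 line and the same differentiation protocol, with 50000 cells per replicate, and the labels call the replicates independent differentiations. The sources used here do not give how the knockdown was made or what the control cells carried, and the knockdown itself was not checked here. Whole lists held 87871 to 115864 peaks in knockdown and 50719 to 68342 in control, and depth is unknown, so a longer list cannot be told apart from the knockdown.

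T-box proteins share a DNA-binding domain and switch heart genes on or off in a place-dependent way. TBX5 works with NKX2-5 and GATA4 to activate genes of the contracting chambers, and TBX20 is needed for chamber growth, so both are counted here with the working myocardium. TBX2 and TBX3 repress chamber genes in the atrioventricular canal, and TBX3 also maintains the pacemaker and conduction tissue. TBX18 marks the precursors of the sinus node and the epicardium, the outer cell layer of the heart. The cells were labelled ventricular-like, and no expression was measured here, so the values say where DNA was called open and not which gene was active.

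The bases upstream of the annotated starts are shown so that the genes whose windows are compared can be set beside each other in sequence. The sequences are from RefSeq on GRCh38.p14 and are given for TBX5, with 2 starts, TBX20 and TBX18; those of TBX2 and TBX3 were not used here. The peak lists use hg19, so no peak was assigned to these starts. Each line gives the 250 bases before a start, 5′ to 3′ in the direction of the gene (minus strand in all 4 cases), with each CG dinucleotide in capitals.

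TBX5, chr12:114408443-114408692: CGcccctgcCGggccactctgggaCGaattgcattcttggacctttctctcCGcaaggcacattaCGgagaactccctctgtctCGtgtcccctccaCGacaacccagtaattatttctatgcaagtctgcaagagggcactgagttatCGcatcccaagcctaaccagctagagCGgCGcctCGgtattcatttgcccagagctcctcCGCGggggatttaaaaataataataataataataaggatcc

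TBX5, chr12:114408013-114408262: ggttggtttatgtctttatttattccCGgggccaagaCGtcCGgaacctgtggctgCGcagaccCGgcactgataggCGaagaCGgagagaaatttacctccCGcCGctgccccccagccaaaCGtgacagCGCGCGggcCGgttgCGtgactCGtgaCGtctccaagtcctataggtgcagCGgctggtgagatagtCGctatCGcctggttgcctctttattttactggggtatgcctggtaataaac

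TBX20, chr7:35254101-35254350: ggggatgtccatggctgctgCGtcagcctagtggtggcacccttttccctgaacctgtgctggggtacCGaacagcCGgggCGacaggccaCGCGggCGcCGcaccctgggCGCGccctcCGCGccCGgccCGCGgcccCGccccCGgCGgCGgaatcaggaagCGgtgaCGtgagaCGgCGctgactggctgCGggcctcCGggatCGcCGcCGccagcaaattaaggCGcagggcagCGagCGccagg

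TBX18, chr6:84764599-84764848: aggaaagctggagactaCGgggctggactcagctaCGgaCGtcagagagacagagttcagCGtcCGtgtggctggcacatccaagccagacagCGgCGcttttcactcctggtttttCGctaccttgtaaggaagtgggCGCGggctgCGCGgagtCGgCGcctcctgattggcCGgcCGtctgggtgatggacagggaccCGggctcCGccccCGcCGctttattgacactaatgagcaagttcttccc

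These 4 sequences differed in CG content. The TBX20 sequence held 31 CG dinucleotides and was 74.0% G or C, and 89.1% of the 35116 RefSeq promoters had fewer CG dinucleotides. The TBX18 sequence held 20 and the TBX5 sequences 13 and 20, where the median promoter held 11. The T-box half-site GGTGTGA, searched on both strands, matched none of the 4 and 2.76% of all promoters. The GATA motif AGATAA (9.17% of all promoters) and the NKX2-5 motif TNAAGTG (8.73%) also matched none. The GC box GGGCGG matched the TBX20 and TBX18 sequences, and 42.6% of all promoters. Only these letters in 250 bases were searched.

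TBX5 had few called sites in control replicates 1 and 2 and many in the other 4 libraries. Its window of 300 kb held 19, 14 and 18 peaks in knockdown (replicates 1, 2 and 3), against 4, 3 and 14 in control. The groups overlapped, because control replicate 3 had as many peaks as knockdown replicate 2. Control replicate 3 called 14 regions here, 10 of them called by no other control library and 11 of them called in knockdown. Strength is given as a percentile of the caller's score, as the authors deposited it, among the peaks of 1 list. The lists differ in length, so a difference in percentile cannot be read as a change between groups.

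Of the 30 TBX5 regions, 2 were called in all 6 libraries (6.67%, beside 18.2% of all regions of the genome). Another 15 were called in 1 library only, beside 38.3% of all regions. In all 3 knockdown libraries and no control library 2 were called (6.67%, beside 7.72% of all regions). A region called in all 3 knockdown and no control library is called knockdown-only below. Within a window, the best-ranked region is the one whose lowest percentile over the libraries that define its class is highest. The best-ranked shared region, also the wider of the pair, was chr12:114773219-114774080, 862 bp wide. Its percentiles were 84.97, 88.1 and 95.0 in the knockdown lists and 76.6, 61.9 and 85.6 in the control lists. The other shared region was chr12:114676487-114677274. The knockdown-only regions were chr12:114841523-114842119 and chr12:114843142-114843968, about 1 kb apart, and both were weak, with lowest percentiles of 14.5 and 8.49. They lay in a cluster of 6 regions at chr12:114838590-114844312, of which knockdown libraries called 3, 4 and 4 and control libraries 1, 0 and 2. A stretch of 55.3 kb from chr12:114683613 had no peak in any library.

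TBX20 had the most knockdown-only regions of the 5 genes by number, but by share of its regions it was close to TBX3 and TBX18. Its window of 250 kb held 28, 23 and 21 peaks in knockdown, against 10, 10 and 9 in control. The groups did not overlap, and the lowest knockdown library had over 2 times the peaks of any control library. Knockdown values above all control values were also found in 62.3% of the 8844 windows and bins tested across the genome. Of 32 regions, 6 were called in all 6 libraries (18.75%, beside 18.2% of all regions) and 6 were knockdown-only. None was called in control alone, beside 16846 of the 157560 regions of the genome. The knockdown-only regions were 18.75% of the TBX20 regions, beside 17.9% for TBX3, 18.2% for TBX18 and 7.72% of all regions of the genome. With every list cut to its strongest 50719 peaks, TBX20 and TBX5 had 1 knockdown-only region each. The best-ranked shared region was chr7:35293218-35294757, with percentiles of 92.4, 91.9 and 92.8 in knockdown and 89.3, 76.7 and 93.7 in control. By single libraries the shared region chr7:35371317-35372267 stood higher in knockdown replicates 1 and 3, at 97.2 and 97.1, but at 27.7 in control replicate 1. The widest shared region was chr7:35225114-35226861, at 1748 bp.

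Most knockdown-only TBX20 regions lay beside the best-ranked region. A cluster of 7 regions ran over 10.2 kb at chr7:35293218-35303372. Every knockdown library called all 7, whereas control libraries called 3, 3 and 2. Of the 7 regions, 2 were called in all 6 libraries and 4 were knockdown-only. The knockdown-only regions chr7:35295788-35296450, chr7:35298772-35299356 and chr7:35299986-35300279 had lowest percentiles of 14.5, 8.49 and 37.0. None of these was among the strongest 50719 peaks of any list. The best-ranked knockdown-only region of all 5 windows closed this cluster at chr7:35302852-35303372, with percentiles of 65.2, 60.8 and 54.6 in the knockdown lists. It was among the strongest 50719 peaks of all 3 knockdown lists, while by its class no control list had a peak there. The knockdown-only regions that ranked next in this window were chr7:35242069-35242277 and chr7:35270945-35271416, with lowest percentiles of 46.9 and 42.3.

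**Figure D1:**
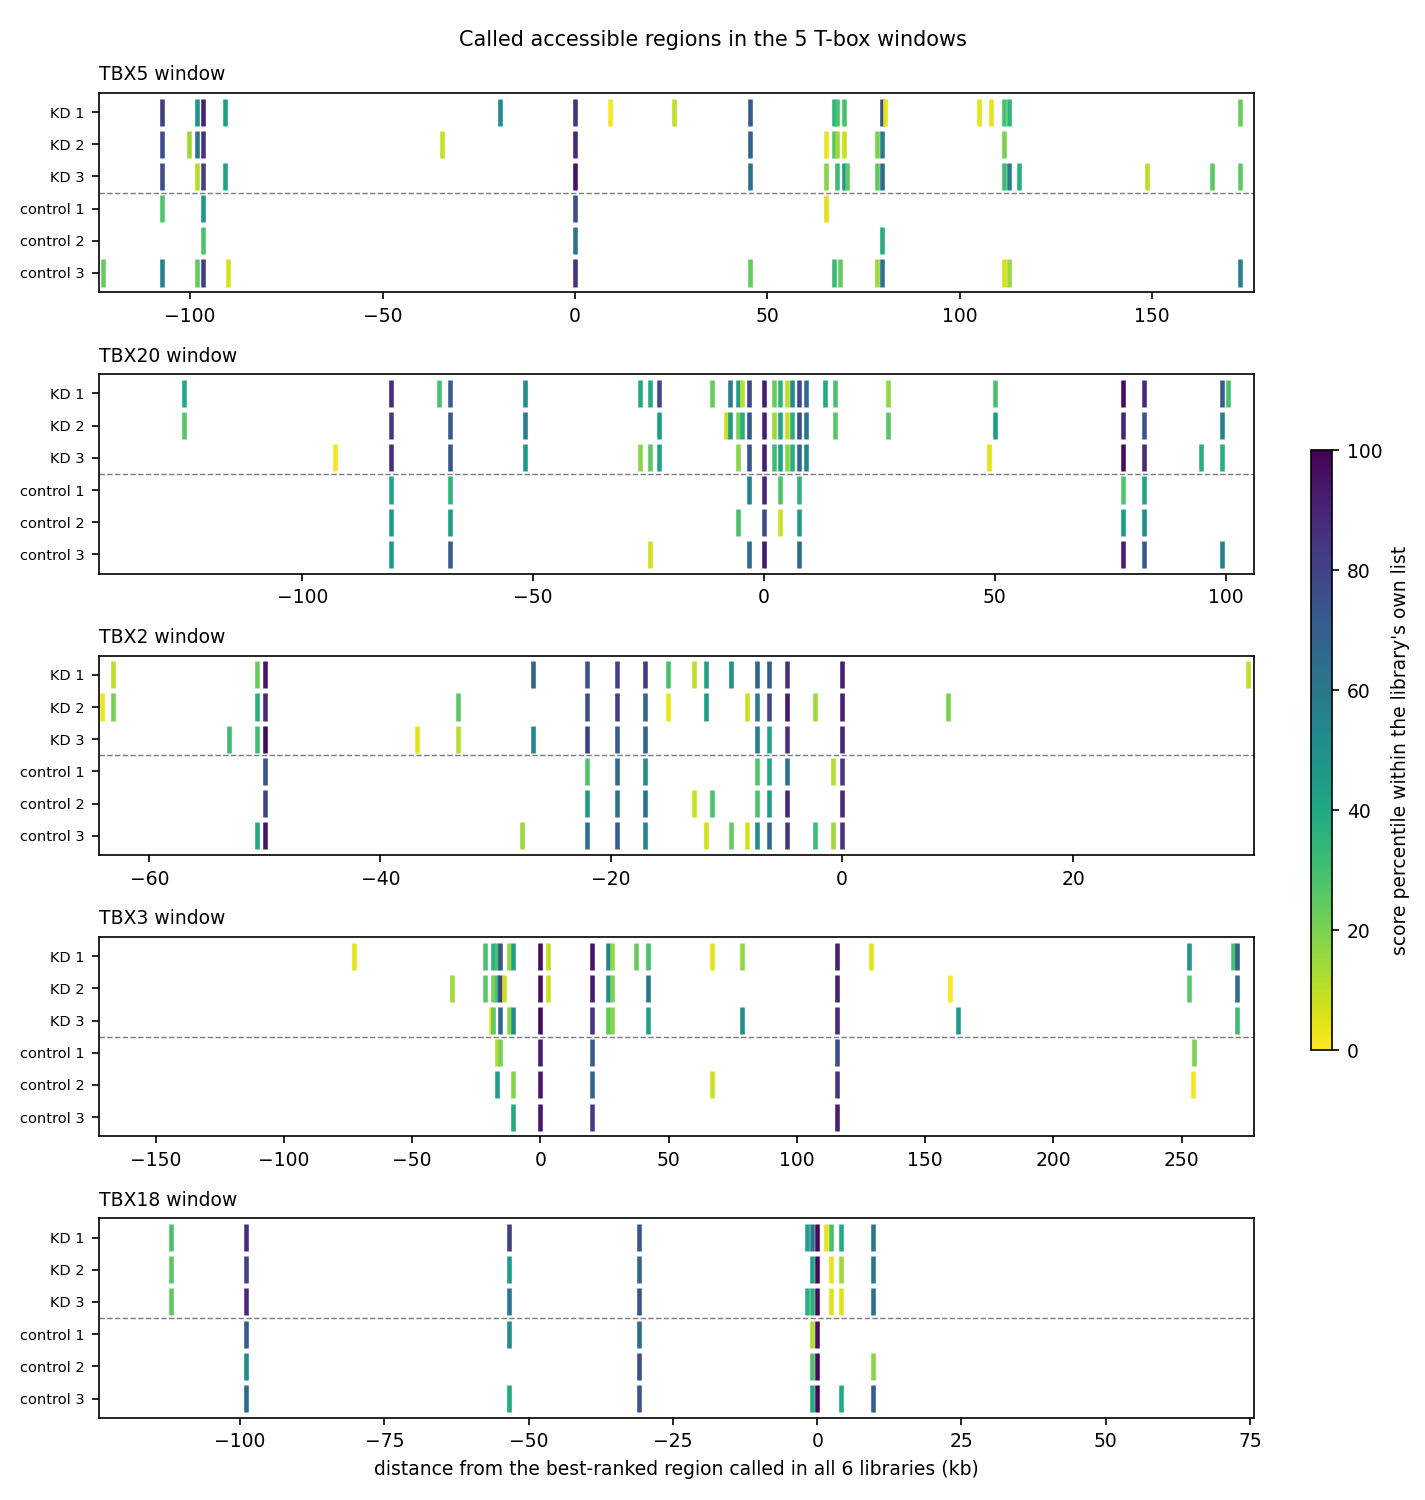
Called regions in the 5 T-box windows, by library. Rows are the 3 knockdown (KD) libraries above the dashed line and the 3 control libraries under it, the x axis is the distance in kb from the region called in all 6 libraries whose lowest score percentile is highest, and colour is the score percentile within the library's own list. Each region is drawn at its midpoint. In the TBX20 window the 7 regions of the cluster that begins at 0 kb are all marked in each knockdown library, against 3, 3 and 2 in control. In the TBX2 window no mark is present in all 3 knockdown rows and absent from every control row.

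TBX2 had the most peaks per length in every library and, in the lists as deposited, was the only window with no knockdown-only region. Its window of 100 kb held 17, 18 and 15 peaks in knockdown, against 11, 14 and 17 in control, and the groups overlapped. Of 26 regions, 8 were called in all 6 libraries (30.8%, beside 18.2% of all regions). Knockdown-only regions numbered 0, beside 7.72% of all regions of the genome. With every list cut to its strongest 50719 peaks, TBX3 and TBX18 also had no knockdown-only region. A cluster of 15 regions over 23.2 kb at chr17:59471419-59494626 held 7 of the 8 shared TBX2 regions. Knockdown libraries called 11, 11 and 7 regions of this cluster and control libraries 8, 9 and 12. The best-ranked shared region was chr17:59494091-59494626, with percentiles of 91.5, 91.2 and 89.5 in knockdown and 83.9, 88.3 and 85.6 in control. The widest was chr17:59473736-59476004, at 2269 bp, of which knockdown peaks covered 2024, 1516 and 1248 bp and control peaks 614, 1445 and 1735 bp, so the groups overlapped in this width. One region, chr17:59493402-59493716, was called in 2 control libraries and in no knockdown library, and is named after its values were seen. Protein-coding neighbours of TBX2 in the RefSeq order are BCAS3 and TBX4, and a site in the window may belong to either.

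TBX3 had 3 sites called in all libraries, while 19 of its 28 regions were called in knockdown and in no control library, beside 47.7% of all regions of the genome. Its window of 450 kb held 22, 17 and 15 peaks in knockdown, against 7, 7 and 4 in control, with no overlap. Of 28 regions, 3 were called in all 6 libraries (10.7%, beside 18.2% of all regions) and 5 were knockdown-only (17.9%, beside 7.72%). In control alone 2 were called, each by 1 library, beside 16846 of the 157560 regions of the genome. The widest region of all 5 windows, chr12:115120760-115123183, was also the best-ranked one here. Its percentiles were 96.2, 95.7 and 97.7 in knockdown and 92.8, 94.5 and 94.0 in control. Peaks covered 1999, 2158 and 1820 of its 2424 bp in knockdown and 779, 1104 and 1080 bp in control. The groups did not overlap in this width.

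The other shared TBX3 regions were chr12:115141477-115142515 and chr12:115237401-115237913. The knockdown-only regions that ranked best were chr12:115393331-115393620, chr12:115163954-115164144 and chr12:115148023-115148297, with lowest percentiles of 31.2, 29.3 and 24.7. A cluster of 7 regions over 8.61 kb lay at chr12:115102717-115111329, of which knockdown libraries called 5, 4 and 5 and control libraries 2, 2 and 1. The first 99.3 kb of the window, next to the TBX5 window, had no peak in any library. TBX5 and TBX3 are neighbours on chromosome 12 in the RefSeq order, so a site between them cannot be given to 1 of the genes.

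TBX18 had the shared region with the highest lowest percentile over the 6 libraries, 96.5 in knockdown replicate 3, where regions of the TBX20, TBX2 and TBX3 windows stood higher. Its window of 200 kb held 12, 11 and 12 peaks in knockdown, against 5, 5 and 8 in control, with no overlap. Of 11 regions, 4 were called in all 6 libraries (36.4%, beside 18.2% of all regions) and 2 were knockdown-only (18.2%, beside 7.72%). The region chr6:85473970-85474827 stood at percentiles of 98.3, 98.2 and 96.5 in knockdown and 96.6, 98.0 and 98.3 in control. Its covered width was 858, 682 and 695 bp in knockdown and 720, 657 and 628 bp in control, and here the groups overlapped. The knockdown-only regions chr6:85362199-85362580 and chr6:85476392-85477162 were weak, with lowest percentiles of 24.7 and 3.40. The second of these lay in a cluster of 6 regions over 6.41 kb that also held the best-ranked region, of which knockdown libraries called 6, 4 and 5 and control libraries 2, 2 and 3. From chr6:85484878 to the end of the window, 65.1 kb had no peak in any library.

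Per length, the order of the genes was the same in both groups. TBX2 had 16.7 ± 1.53 peaks per 100 kb in knockdown and 14.0 ± 3.0 in control (SD, n = 3 each). TBX20 followed with 9.60 ± 1.44 in knockdown and 3.87 ± 0.231 in control. TBX18 had 5.83 ± 0.289 in knockdown and 3.0 ± 0.866 in control, TBX5 5.67 ± 0.882 in knockdown and 2.33 ± 2.03 in control, and TBX3 4.0 ± 0.801 in knockdown and 1.33 ± 0.385 in control. TBX2 was highest in every library. TBX20 was next in every knockdown library, but in control replicate 3, with 9 TBX20 peaks in 250 kb, TBX5 and TBX18 stood above it. TBX18 and TBX5 overlapped in both groups, and so did TBX5 and TBX3. The windows take in different lengths of flanking DNA, so these densities describe windows and not genes.

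**Figure D2:**
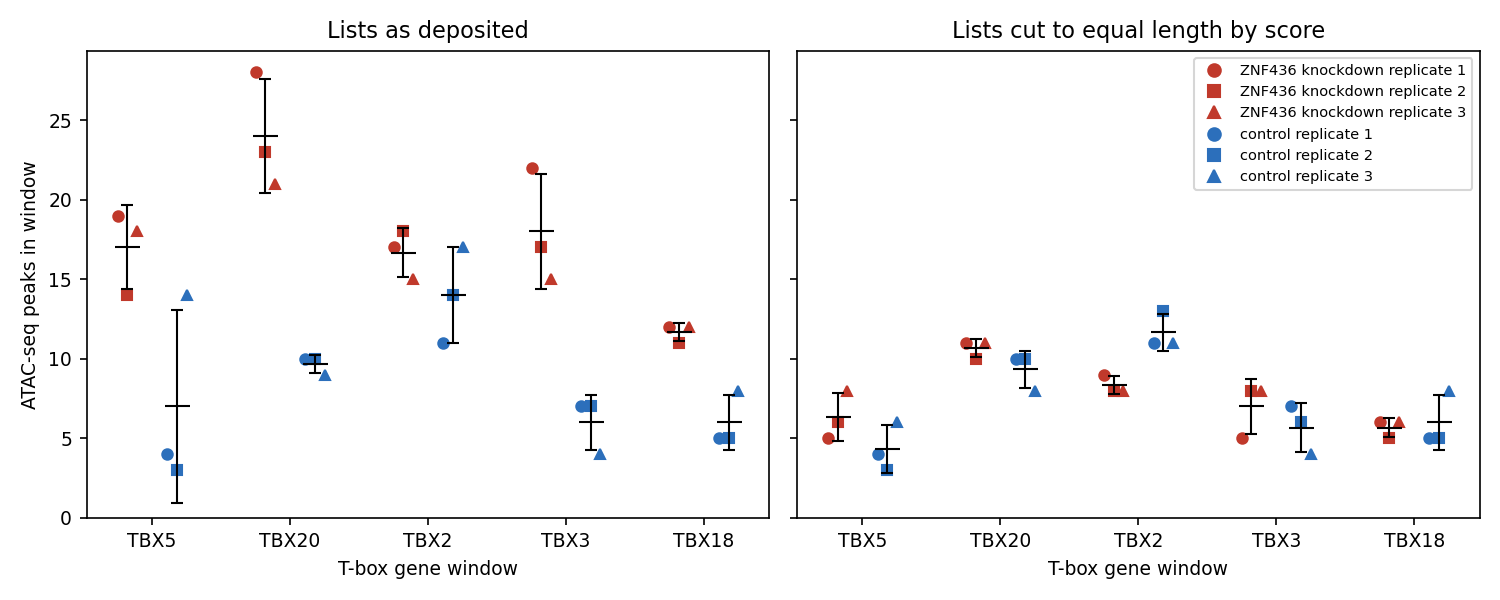
ATAC-seq peaks in each T-box window, with lists as deposited (left) and with every list cut by score to the length of the shortest (right). Points are libraries, knockdown in red left of control in blue, and bars are the mean and SD (n = 3). As deposited, knockdown lies above control without overlap for TBX20, TBX3 and TBX18; with equal lists the groups are separate for TBX2 alone, where knockdown has 8 or 9 peaks and control 11 to 13.

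Together the 5 windows held 98, 83 and 81 peaks in knockdown, against 37, 39 and 52 in control. The mean was 87.3 ± 9.29 in knockdown and 42.7 ± 8.14 in control (SD, n = 3 each), a ratio of 2.05 (two-sided exact permutation test, p = 0.1, the smallest that 3 against 3 libraries allow). The knockdown values exceeded all control values in 3 of the 5 windows (TBX20, TBX3 and TBX18). The same held for 62.3% of the 8844 windows and bins tested across the genome, so this count is close to the background. With every list cut to its strongest 50719 peaks the windows together held 36, 37 and 41 peaks in knockdown and 37 in each control library. That cut kept 43.8 to 57.7% of the knockdown lists and 74.2 to 100% of the control lists. By number of peaks in these equal lists, 0 of 5 windows lay above control without overlap (10.3% of the 7277 windows and bins with enough peaks). TBX2, 1 of 5, lay under it (7.63%). By covered bases TBX5, TBX20, TBX2 and TBX3 lay above control without overlap and TBX18 overlapped. No share over all intervals was computed for this, so it is not read as a result about these windows. Together the windows covered 25408 ± 1435 bp in knockdown and 15838 ± 3321 bp in control (SD, n = 3 each). Over whole lists, median peak width after the cut was also larger, at 440 to 489 bp in knockdown and 290 to 339 bp in control.

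Of the 127 regions, 15 were knockdown-only (11.8%), where 7.72% of all regions of the genome were. Control-only regions, called in all 3 control and no knockdown library, numbered 0, where 0.131% of all regions were control-only. Without control replicate 2, 1 region was control-only, the TBX2 region chr17:59493402-59493716. The 15 knockdown-only regions became 25 without knockdown replicate 3, a setting in which the share of all regions was not computed. With equal lists they numbered 2 of 61 regions, beside 3.08% of all regions. Those 2 were the TBX20 region that closes the cluster and chr12:114819058-114819329 in the TBX5 window, which control replicate 3 had called among its weaker peaks. In equal lists no T-box region was control-only, beside 1.33% of all regions. Regions called in all 6 libraries numbered 23 (18.1%, beside 18.2% of all regions). Of these, 21 stayed in all 6 lists after the cut to equal length. In equal lists, regions called in all 6 libraries were 34.4% of the 61 T-box regions, beside 29.3% of all regions.

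The share of a list that fell in each window was tested by limma over 8844 intervals, which were the 5 windows and bins of 250 kb of the rest of the genome. A higher share in knockdown was called in 0 of 5 windows, beside 4.85% of intervals, and a lower share in 1 of 5, beside 5.7% of intervals (limma, Benjamini-Hochberg adjusted p under 0.05). TBX2 was the window that fell as a share of the list, while unscaled peak numbers gave a log2 change of 0.26 with a median of 0.88 over all intervals. It held 1.47, 1.76 and 1.71 of every 10000 peaks in knockdown, against 2.17, 2.61 and 2.49 in control. The groups did not overlap. The log2 change was -0.57 (SE 0.151, limma adjusted p = 0.0312), and the median over all intervals was 0.05. The call was lost without knockdown replicate 1, 2 or 3 or control replicate 2, where the limma adjusted p was 0.159, 0.0853, 0.081 and 0.0742.

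The lower TBX2 share was called by number of peaks and not by covered bases. TBX2 peaks covered 11493, 10332 and 8943 bp in knockdown, against 4071, 5314 and 8210 bp in control, and as a share of all covered bases the log2 change was -0.048 (SE 0.145, limma adjusted p = 0.835). The 8 shared TBX2 regions held 9, 9 and 10 peaks in knockdown and 10, 12 and 10 in control in the lists as deposited. In equal lists they held 8, 8 and 7 peaks in knockdown and 10, 11 and 9 in control. As deposited, the peaks in these regions averaged 899 ± 117 bp in knockdown and 493 ± 167 bp in control (n = 3 each, SD; two-sided exact permutation test, p = 0.1). The widths did not overlap between groups, and their part in the lower share was not tested.

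The other 4 windows did not pass the test of peak share. The log2 change was 0.68 for TBX5 (SE 0.335, limma adjusted p = 0.202), 0.43 for TBX20 (SE 0.170, adjusted p = 0.114), 0.70 for TBX3 (SE 0.262, adjusted p = 0.0982) and 0.11 for TBX18 (SE 0.194, adjusted p = 0.763). The TBX5 change was 1.17 and passed without control replicate 3 (limma adjusted p = 0.0119, beside 9.31% of intervals called higher), but was 0.32 without control replicate 2 (adjusted p = 0.599). That of TBX3 was 0.91 and passed without control replicate 1 (limma adjusted p = 0.0495, beside 5.01% of intervals), but was 0.33 without control replicate 3 (adjusted p = 0.173). With equal lists the change was 0.19 for TBX20 (limma adjusted p = 0.471) and 0.29 for TBX3 (adjusted p = 0.506), and in the stronger 50% of each list that of TBX3 was 0.11 (adjusted p = 0.773). By covered bases 2 of 5 windows, TBX20 and TBX3, were called higher, beside 12.8% of intervals. TBX20 peaks covered 14084, 10805 and 10518 bp in knockdown, against 4472, 3697 and 4559 bp in control, a log2 change in share of 0.55 (SE 0.118, limma adjusted p = 0.0126). TBX3 peaks covered 7538, 6959 and 5757 bp in knockdown, against 2161, 2692 and 2614 bp in control, a change of 0.50 (SE 0.132, adjusted p = 0.0258). The median change over all intervals by covered bases was 0.11.

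**Figure D3:**
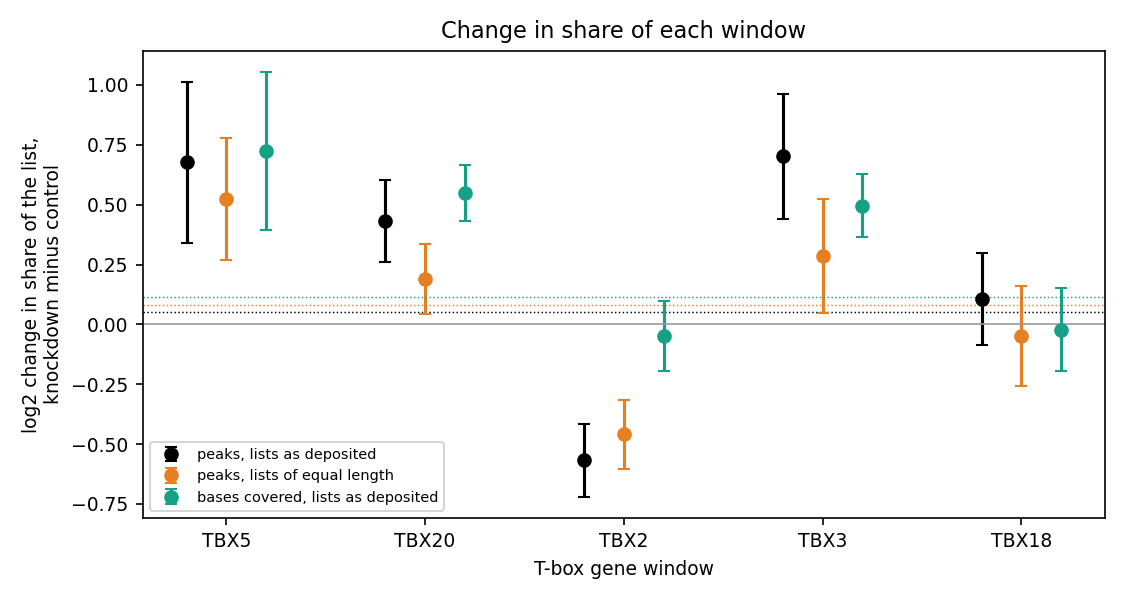
Log2 change in the share of each window, knockdown minus control, by peaks in lists as deposited (black), by peaks in lists of equal length (orange) and by covered bases (green). Points are limma estimates, bars are their SE, and dotted lines are the median over all intervals of each fit. TBX2 is at -0.57 by peaks and at -0.048 by bases, and TBX20 at 0.43 and 0.55.

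At the sites common to all libraries, each knockdown library had more covered bases than any control library. Over the 23 shared T-box regions, peaks covered 22160, 20625 and 20404 bp in knockdown, against 11891, 11978 and 15898 bp in control, a ratio of 1.59 (two-sided exact permutation test, p = 0.1). Every knockdown library covered more than any control library in 12 of the 23 regions, beside 47.2% of the shared regions of the genome, and the reverse held in 0. By gene these were 5 of 6 regions for TBX20, 5 of 8 for TBX2, 2 of 3 for TBX3, 0 of 2 for TBX5 and 0 of 4 for TBX18. Over whole lists, peaks averaged 425 to 440 bp in knockdown and 400 to 427 bp in control. Within the shared regions the mean width was 966 ± 74.1 bp in knockdown and 508 ± 134 bp in control for TBX20 (two-sided exact permutation test, p = 0.1), and 506 ± 42.7 bp in knockdown and 426 ± 59.0 bp in control for TBX18 (exact p = 0.2; SD, n = 3 each).

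**Figure D4:**
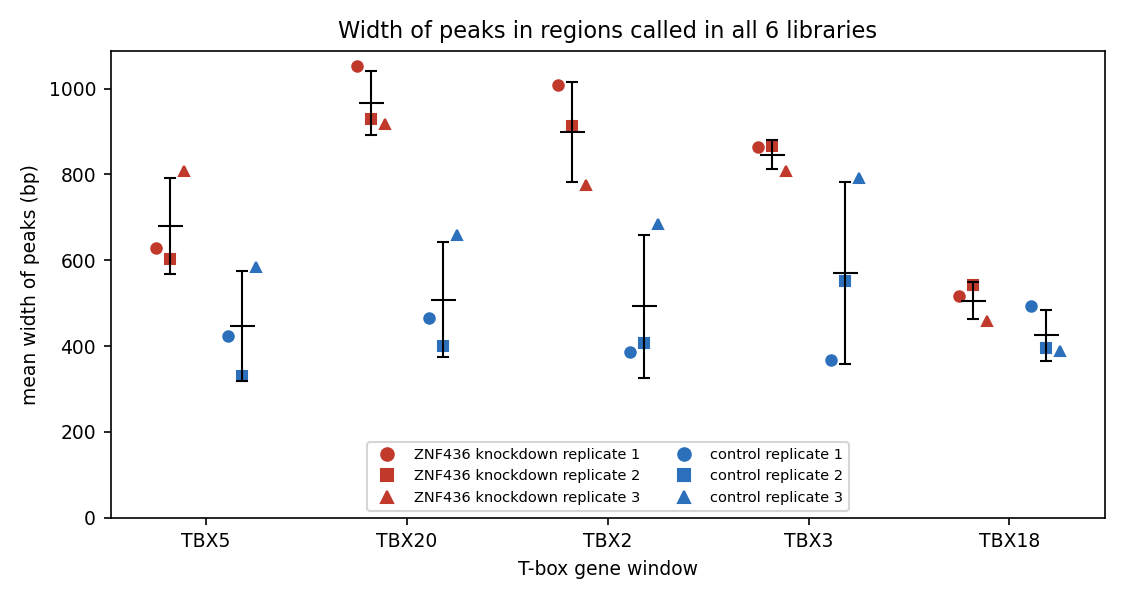
Mean width in bp of the peaks inside regions called in all 6 libraries, by T-box window. Points are libraries, knockdown in red left of control in blue, and bars are the mean and SD (n = 3). In the TBX20 window knockdown peaks average 919 to 1052 bp and control peaks 400 to 659 bp, and in the TBX18 window the groups overlap.

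TBX5 and TBX20 together took a larger share of the T-box peaks in knockdown. However, in the lists as deposited the groups overlapped when TBX2, TBX20 or TBX18 was left out, and in equal lists when TBX20 was. With all windows, the share of TBX5 and TBX20 was 48.0, 44.6 and 48.1% in knockdown, against 37.8, 33.3 and 44.2% in control. The mean was 46.9 ± 2.01% in knockdown and 38.5 ± 5.48% in control (SD, n = 3 each), a difference of 8.43 percentage points (two-sided exact permutation test, p = 0.1, the smallest possible). The groups did not overlap, although control replicate 3 was within 1 percentage point of knockdown replicate 2. With equal lists the shares were 44.4, 43.2 and 46.3% in knockdown and 37.8, 35.1 and 37.8% in control. Leaving out TBX2 brought the shares to 58.0 ± 1.08% in knockdown and 57.2 ± 7.44% in control (n = 3 each, SD; two-sided exact permutation test, p = 1.0). In that setting control replicate 3, at 65.7%, was the highest of all 6 libraries. With equal lists and without TBX2 they were 57.3 ± 2.05% in knockdown and 54.0 ± 0.185% in control (exact p = 0.1), with no overlap. Leaving out TBX20, the shares overlapped at 26.8 ± 3.34% in knockdown and 19.2 ± 11.7% in control (exact p = 0.4). Leaving out TBX18, they were 54.2 ± 2.60% in knockdown and 44.8 ± 7.07% in control (exact p = 0.2), and control replicate 3, at 52.3%, stood above knockdown replicate 2, at 51.4%. With each gene weighted equally, as a mean of log2 peak numbers, the difference between working and nodal or epicardial genes was 0.47 higher in knockdown than in control (exact p = 0.2). TBX3, counted with the nodal genes, held 15 to 22 peaks in knockdown libraries and 4 to 7 in control libraries.

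**Figure D5:**
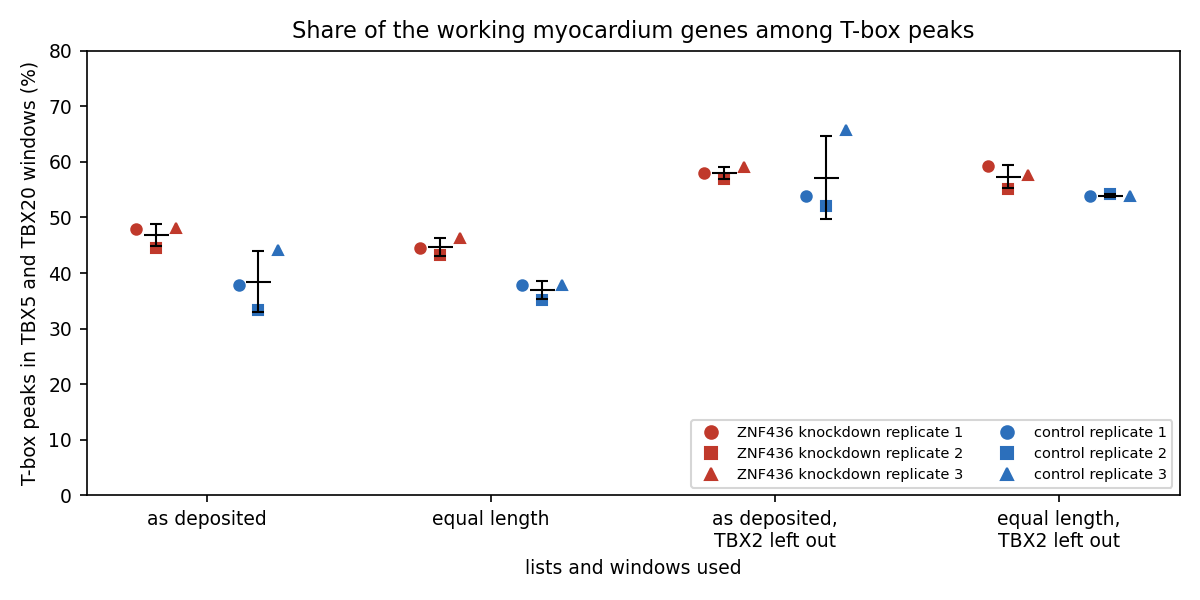
Share (%) of the peaks in all T-box windows that lay in the TBX5 and TBX20 windows, for lists as deposited and of equal length, with all 5 windows and with TBX2 left out. Points are libraries, knockdown in red left of control in blue, and bars are the mean and SD (n = 3). With all windows the knockdown libraries lie above the control libraries in both kinds of list, and without TBX2 they overlap in the lists as deposited.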

How the data were processed

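Peak lists of 6 ATAC-seq libraries were used, 1 per library, with positions on hg19. The submitters' processing notes name hg19, Bowtie2 2.4.5 and also bedtools 2.30.0, without their roles. Peak names begin with MACS and name 1 library. Caller version, threshold, any shift for the Tn5 cut and any duplicate removal: not given in the sources used here. Scores are the deposited values of the authors' peak caller and served to rank the peaks of 1 list. The lists hold no read counts, so depth is unknown, and in general more reads give more and wider peaks.

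Peaks were put into windows by midpoint. Intervals with a mean of at least 2 peaks entered limma 3.58.1 (R 4.3.3, trended and robust variance) as log2((peaks + 0.5) / list length × median list length), with Benjamini-Hochberg adjustment over all 8844 intervals. The fit was also run on simulated counts whose spread was fixed and not taken from these libraries. That run does not show how the test performs in these windows. A cut of all lists to 50719 peaks by score broke ties with a fixed seed. Covered bases used a pseudocount of 145 bp. Single values were compared by exact permutation of the 6 libraries. Clusters are at least 3 regions under 2 kb apart. In each window the named regions are the best-ranked and the widest shared region, up to 3 knockdown-only regions by lowest percentile, and all control-only ones; others were named after their values were seen. The genes, lists and tests were chosen with earlier results of these data known. The planned count at other cardiac genes needs an annotation of hg19 and was not run. Python 3.11.15, numpy 2.4.6, pandas 2.3.3 and matplotlib 3.10.9 were used.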

Additional observations from a re-analysis of the deposited data

How the results depend on the processing

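The alternatives were lists of equal length, the stronger 50% of each list, covered bases, other scalings, pseudocounts, bin sizes and filters, and leaving out each library. The TBX2 change in share of -0.57 turned to 0.26 with no scaling to list length (limma adjusted p = 0.287). It missed the threshold at -0.46 with equal lists, -0.44 with the stronger 50%, -0.048 by covered bases, -0.57 with bins of 100 kb (adjusted p = 0.0536) and -0.52 with equal lists scaled to the median ratio, a setting chosen after seeing the data. With no scaling, in which the median of all intervals was 0.88, the changes of TBX5, TBX20, TBX3 and TBX18 were 1.51, 1.26, 1.53 and 0.93, and all passed, beside 66.8% of all intervals called higher. By covered bases TBX20 (0.55) and TBX3 (0.50) passed, beside 12.8% of intervals. The TBX18 change of 0.11 turned to -0.049 with equal lists, -0.27 with the stronger 50%, -0.022 by covered bases, -0.11 with equal lists and median scaling and -0.018 without knockdown replicate 3. The causes were not tested.

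With 1 library left out, the changes ran from 0.32 to 1.17 for TBX5, 0.25 to 0.54 for TBX20, -0.64 to -0.49 for TBX2, 0.33 to 0.91 for TBX3 and -0.018 to 0.19 for TBX18. The ratio of T-box peaks ran from 1.919 to 2.298 and the difference in working myocardium share from 5.86 to 11.3 percentage points. That ratio was 1.03 with equal lists and 1.16 per 10000 peaks of the list, and the share difference was 16.3 points with the stronger 50% (exact permutation p = 0.3) and 13.9 without TBX3. Knockdown-only regions numbered 15 to 25 and control-only ones 0 to 1. Knockdown-only regions numbered 2 with equal lists, beside 3.08% of all regions, and 4 with the stronger 50%. When 2 of 3 libraries sufficed they numbered 33 of 127, beside 30254 of the 157560 regions of the genome, and control-only ones numbered 1. Shares over all regions were not computed for the stronger 50% or with 1 library left out. Leaving out a library or asking for 2 of 3 eases the condition by construction.

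With the replicate number as a block, the TBX5 change of 0.68 and the TBX3 change of 0.70 passed (limma adjusted p = 0.0421 and 0.036, beside 7.3% of intervals called higher), TBX2 stayed called, and the mean ratio of T-box peaks was 2.11. Deviations from the mean of the group correlated by 0.004, 0.057 and 0.038 between same-numbered libraries, and by -0.076 to 0.034 between the others. The same number gave the highest value for knockdown replicates 2 and 3. Knockdown replicate 1 correlated more with control replicate 3 (0.034) than with control replicate 1. All these values were small, so they do not settle whether the numbers pair the samples. Of all intervals, 646 were higher and 591 lower with the block, against 429 and 504. The counts were 5904 and 32 with no scaling, 156 and 197 with equal lists, 1129 and 696 by bases, 223 and 497 with the stronger 50%, 219 and 584 with bins of 100 kb, 104 and 241 with equal lists and median scaling, and 12 to 840 and 83 to 656 with 1 library left out.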
